A study of Capra hircus with 40 samples.

Results

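The ovary of the Jining gray goat (Capra hircus) was compared between month 6 and day 1 after birth, using counts of mature microRNAs (miRNAs). Both groups were chosen by their labels, tissue ovary and age day 1 or month 6, and held 5 libraries each, 10 of the 40 libraries of the series. The other libraries were ovary at months 2 and 4 and uterus at all 4 ages, 5 each. All goats were females of 1 breed from 1 farm, kept under the same conditions, and no group carried a treatment or an engineered allele. RNA came from tissue pieces, so cell types within the ovary were not separated. Each library is named by the number of its individual in the labels. These numbers start again at each age, and whether any goats were related, or libraries were made on different days, is not given in the sources used here. All 427 miRNA entries of the table were members of the comparison. Of these 419 had at least 1 count in the 10 libraries, and 317 passed the low-count filter and were tested.

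A miRNA is a short RNA cut from a hairpin precursor. Loaded into an Argonaute protein, it pairs with messenger RNAs, mostly through the seed near its 5′ end, and lowers their translation or stability. Each hairpin can give a product from its 5′ arm (5p) and one from its 3′ arm (3p). In a ruminant ovary at birth the pool of primordial follicles has already formed. Follicle growth, vascular remodelling and the onset of cycles follow, and this breed is known for early puberty and large litters. The series addresses how the miRNAs of the reproductive tract change during sexual maturation.

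Libraries held 7539848 to 8405361 counts at day 1 and 6316644 to 8017302 at month 6. A principal component with 45.4% of the variance parted the groups: day 1 libraries lay between -20.6 and -11.5 and month 6 libraries between 10.7 and 17.8. At least 1 count was found for 383 ± 10.4 miRNAs at day 1 and 361 ± 10.1 at month 6 (mean ± SD, n = 5). The difference of -21.2 had p = 0.0317 (exact two-sided permutation test, smallest possible p 0.00794, adjusted p = 0.0476 over 2 such tests) and was -19.6 when all libraries were thinned to the smallest total. It missed the threshold (exact permutation p = 0.0635) without month 6 replicate 2 or 3, or without day 1 replicate 1, 2, 4 or 5. Library totals were also lower at month 6 (exact permutation p = 0.0476).

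Each group held libraries unlike the rest of it. In day 1 replicate 3, miR-143-3p, a miRNA of smooth muscle, took 73.3% of the counts, and the scaling factor of this library was 0.445 against at least 0.894 in the other 9. The gonad miRNA miR-202-5p was at 2.61 CPM (the count scaled to the library total, as in the usual CPM unit) there, against 565 to 7818 CPM in the other day 1 ovaries and 0.246 to 0.856 CPM in day 1 uterus. Its partner arm, miR-202-3p, was at 0 CPM in this library, as in all uterus libraries of day 1 and month 6. The defining marker of the gonad was thus near its uterus level in the library labelled ovary day 1 replicate 3. Its miR-143-3p share of 73.3% was, however, also above the 22.4% to 32.5% of the day 1 uterus libraries. The cause was not tested. Month 6 replicates 2 and 4 held 15864.5 and 15960 CPM of let-7a-5p, while replicates 1, 3 and 5 held 98264.5, 95030.5 and 122493 CPM. Day 1 replicate 3 and month 6 replicates 2 and 4, called the 3 doubted libraries below, entered all values. Values without them are given beside the results that they changed most. CPM values, and the overlap of groups in CPM, do not use the scaling factors. The 73.3% share of miR-143-3p thus lowers the CPM of all other miRNAs in day 1 replicate 3. The log2 changes of the main fit do use the scaling factors.

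Of the 317 miRNAs tested, 167 were called (52.7%), 74 of them higher (23.3%) and 93 lower (29.3%) at month 6. The counts of rises and falls in the lists below are to be read beside these shares. A call is an adjusted p under 0.05 in edgeR's quasi-likelihood test, and all log2 changes are month 6 minus day 1, ± SE, with n = 5 libraries a group. A fall in such tissue RNA cannot be told apart from fewer cells of the type that makes the miRNA. The median change over all tested miRNAs was -0.13 and the median absolute change 1.18. Of the calls, 157 exceeded a change of 1 on the log2 scale, and 30 rose and 52 fell by more than 2. In the median library the called rises went from 8.56% of all counts at day 1 to 33.6% at month 6, and the called falls from 51.2% to 15.3%. Groups did not overlap in CPM for 45 miRNAs on the higher side (14.2%) and 42 on the lower side (13.2%). Without month 6 replicates 2 and 4 there were 184 calls, 151 of them shared with the 167, and without all 3 doubted libraries there were 189, of which 145 were shared. With DESeq2's size factors or library totals in place of the scaling used, the median of all miRNAs moved to -0.02 and -0.01, and changes are best read against it.

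The floor for naming was a mean of 10 CPM over the 10 libraries, which a rise can pass through its month 6 libraries alone. Above it, the 15 largest rises were let-7b-3p, miR-1248-5p, miR-328-3p, miR-129-3p, miR-1343, let-7d-3p, miR-197-3p, miR-150, miR-671-3p, miR-1306-5p, miR-125a-5p, miR-92a-3p, miR-211, miR-125a-3p and miR-195-3p. Their log2 changes ran from 5.74 to 2.70, and in all 15 every month 6 library exceeded every day 1 library. The largest was let-7b-3p, the minor arm of a let-7 hairpin. It was at 8.61, 14.99, 11.5, 13.5 and 10.3 CPM at day 1 and at 279, 1421, 174, 1644 and 109 CPM at month 6. Replicates 2 and 4 were thus above the other month 6 libraries, and all 5 were above day 1. The change was 5.74 ± 0.78 (adjusted p = 1.46e-05) and 3.61 without those 2 libraries. The same 2 libraries set most of the rise of miR-1248-5p, at 60.1 and 68.2 CPM against 3.16 to 4.79 CPM in the other 3 and 0.615 to 2.65 CPM at day 1. Its change of 4.28 ± 0.87 was 1.40 without them and 1.43, no longer called, without all 3 doubted libraries. In miR-1306-5p the change was 2.97 ± 0.50 and 1.97 without replicates 2 and 4.

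**Figure D1:**
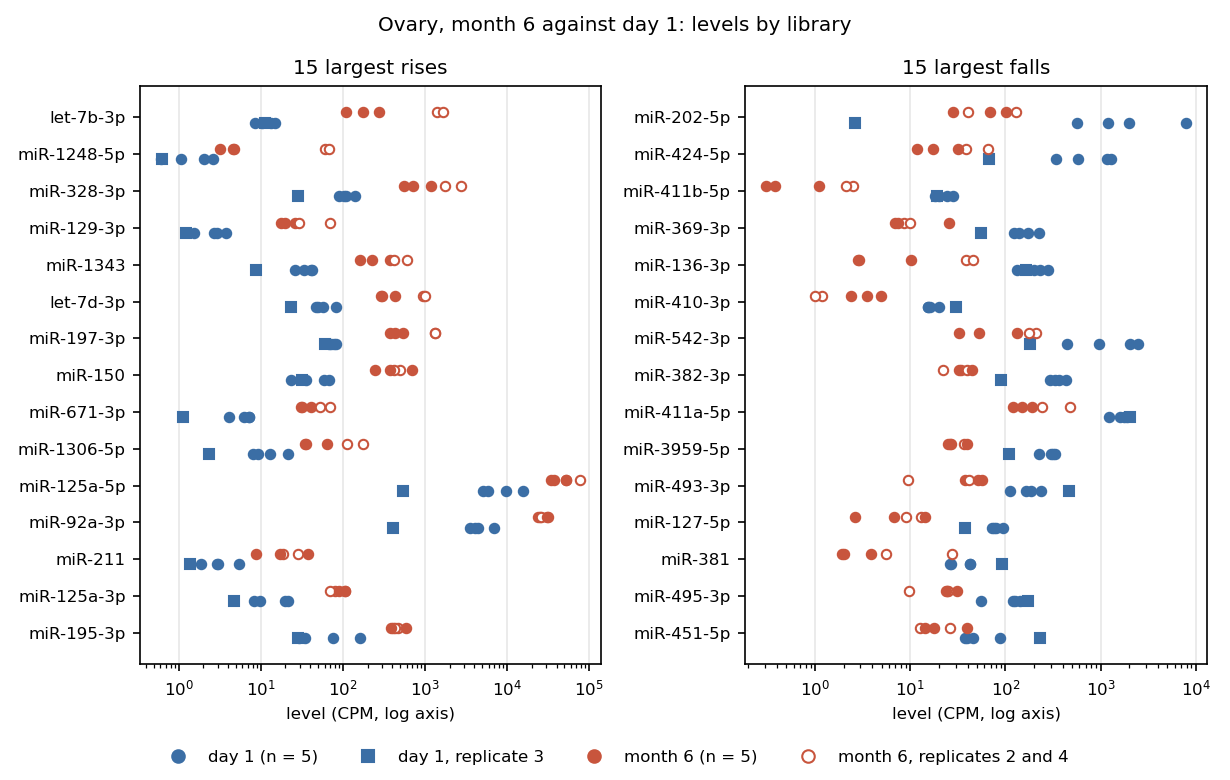
Level of each of the 15 largest called rises and 15 largest called falls in the 10 ovary libraries (CPM, log axis); each point is 1 library, squares mark day 1 replicate 3 and open circles month 6 replicates 2 and 4. The month 6 points lie above all day 1 points for the 15 rises, while miR-202-5p, miR-542-3p, miR-381 and miR-451-5p overlap among the falls.

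Other rises depended on month 6 replicates 2 and 4 to differing degrees. miR-328-3p stood at 110, 142, 28.3, 103 and 89.7 CPM at day 1 and at 1171, 2720, 559, 1752 and 716 CPM at month 6, a change of 3.85 ± 0.47 (adjusted p = 9.25e-06). miR-1343 went from 30.3 ± 13.6 to 359 ± 175 CPM (3.55 ± 0.45) and miR-197-3p from 72.7 ± 8.35 to 794 ± 480 CPM (3.27 ± 0.49). Without month 6 replicates 2 and 4 the changes of miR-328-3p, miR-1343 and miR-197-3p were 2.95, 2.94 and 2.29. That of miR-92a-3p was 2.77. miR-92a-3p, a product of the miR-17-92 transcripts, was already abundant. It was at 4442, 3519, 406, 6996 and 4070 CPM at day 1 and at 25020, 31616, 23586, 26171 and 30326 CPM at month 6, and its change was 2.85 ± 0.47 (adjusted p = 7.41e-05). The month 6 libraries lay close together and day 1 replicate 3 lay lowest. miR-423-5p (2.66 ± 0.37) and miR-222-3p (2.67 ± 0.36) also rose with no overlap of the groups.

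The 15 largest falls, under the same floor of 10 CPM, were miR-202-5p, miR-424-5p, miR-411b-5p, miR-369-3p, miR-136-3p, miR-410-3p, miR-542-3p, miR-382-3p, miR-411a-5p, miR-3959-5p, miR-493-3p, miR-127-5p, miR-381, miR-495-3p and miR-451-5p. Their changes ran from -4.87 to -2.69. Most come from a pair of gene clusters, the imprinted DLK1-DIO3 region and the miR-424 cluster. The smaller miR-215-5p, known from liver and gut, changed by -4.996 ± 0.83 but reached only 13.5 ± 12.2 CPM at day 1, and it was at 0.154 to 1.01 CPM at month 6. Its change was -3.69 without day 1 replicate 3 and -4.10 without the 3 doubted libraries, still called in both. The stricter filter left it untested.

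The DLK1-DIO3 region is expressed from 1 parental chromosome, and its miRNAs come from the maternal copy, with high levels in fetal tissue and placenta. The table held 68 entries from this region. Of these, 47 were tested, and 31 fell, 0 rose and 16 were not called, beside 93 falls and 74 rises among all 317. The median change was -2.19, against -0.13 over all tested miRNAs, and 26 members had month 6 libraries all below day 1. Without month 6 replicates 2 and 4 the region had 32 falls and 0 rises, and without the 3 doubted libraries 30 and 0. With library totals in place of TMM scaling it had 30 falls and 1 rise. The direction of this list was known from earlier results on these libraries and is not independent evidence.

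Abundant members show the size of the drop. miR-379-5p, first in the string of hairpins, was at 3827, 3629, 2515, 2704 and 3632 CPM at day 1 and at 749, 391, 479, 999 and 656 CPM at month 6 (-2.49 ± 0.49, adjusted p = 0.000372). miR-411a-5p, whose hairpin lies next to it, went from 1603, 1767, 2022, 1241 and 1897 CPM to 150, 245, 119, 477 and 189 CPM (-3.13 ± 0.53, adjusted p = 0.000103). In both, the lowest day 1 library held more than the highest at month 6. miR-382-3p fell from 302 ± 129 to 34.7 ± 8.61 CPM (-3.16 ± 0.46), miR-3959-5p from 258 ± 93.5 to 30.7 ± 6.65 CPM (-3.13 ± 0.39) and miR-369-3p from 143 ± 62.5 to 11.7 ± 7.79 CPM (-3.69 ± 0.48). Low members fell as far. miR-411b-5p was at 18.3 to 27.8 CPM at day 1 and 0.309 to 2.49 CPM at month 6 (-4.27 ± 0.81), and miR-376e-3p went from 10.6 ± 4.33 to 0.657 ± 0.323 CPM (-4.03 ± 0.62).

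Single libraries moved some members of the region. For miR-136-3p, replicates 2 and 4 held 38.3 and 45.2 CPM, while the other month 6 libraries held 2.85 to 10.2 CPM. Day 1 libraries held 131 to 283 CPM, and the change of -3.52 ± 0.70 was -5.57 without those replicates. miR-381 was at 92.6 CPM in day 1 replicate 3 and 26.3 to 42.7 CPM in the other day 1 libraries. At month 6 it was at 27.3 CPM in replicate 4 and 1.90 to 5.57 CPM in the rest. Its change of -2.96 ± 0.87 became -1.93 without the former and -4.82 without month 6 replicates 2 and 4. miR-493-3p went from 232 ± 138 to 39.2 ± 18.4 CPM (-3.11 ± 0.77), with -2.06 left without day 1 replicate 3 and no call (-1.78) without all 3. The change of miR-410-3p was -3.34 ± 0.69 and -2.17 without the 3.

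The most abundant product of the region did not follow. miR-127-3p, which represses the paternally expressed retrotransposon-like gene RTL1, was at 12278, 9518, 2082, 7174 and 12662 CPM at day 1 and at 16867, 4368, 8030, 7343 and 12271 CPM at month 6. The groups overlapped throughout, and the change was 0.12 ± 0.39 (adjusted p = 0.809). miR-127-5p from the same hairpin fell from 72.2 ± 21.1 to 9.14 ± 4.67 CPM (-3.10 ± 0.47). The summed level of the region, to which miR-127-3p gives the largest part, therefore overlapped between groups, with medians of 19545 CPM at day 1 and 10644 CPM at month 6. miR-382-5p likewise was not called (-0.72 ± 0.48, adjusted p = 0.228) beside its falling partner miR-382-3p.

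The X-linked cluster of miR-424, miR-450 and miR-542, whose miR-424-5p restrains the cell cycle as a relative of miR-15 and miR-16, had 6 tested members. Of these 5 fell and 0 rose (median -2.29), beside 29.3% and 23.3% of all 317. miR-424-5p was at 339, 584, 67.2, 1298 and 1160 CPM at day 1 and at 11.7, 66.1, 17.2, 38.5 and 31.8 CPM at month 6 (-4.36 ± 0.74, adjusted p = 0.000105). Day 1 replicate 3 lay just above the highest month 6 library, and the rest were far above it. miR-542-3p went from 1221 ± 1001 to 121 ± 76.8 CPM (-3.33 ± 0.61) and miR-450-5p from 1230 ± 663 to 269 ± 140 CPM (-2.21 ± 0.46). miR-424-3p was not called, at 159 ± 99.2 and 295 ± 217 CPM (0.93 ± 0.48, adjusted p = 0.118), and it was the single member called higher, with 5 still lower, without the 2 or the 3 doubted libraries.

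**Figure D2:**
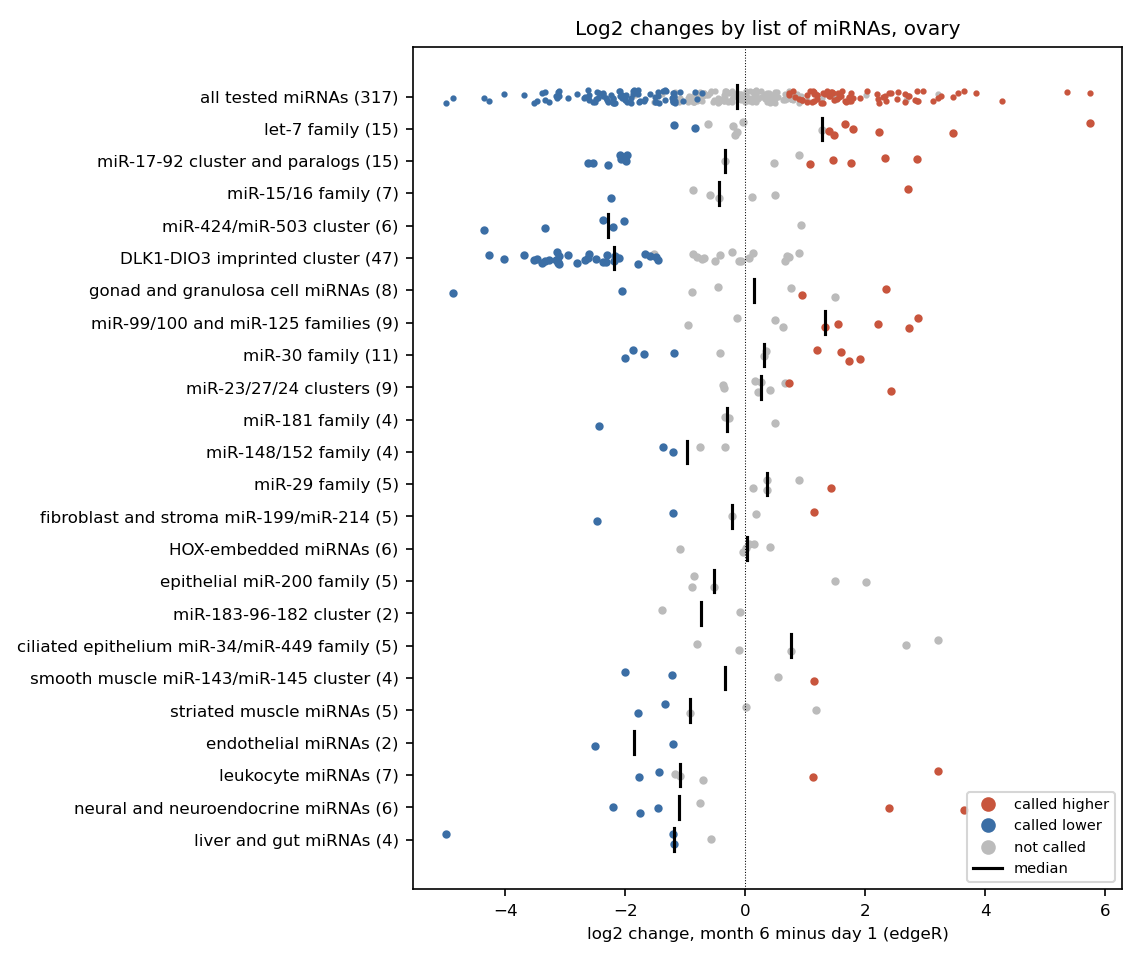
Log2 change (month 6 minus day 1) of every tested miRNA and of each list with at least 2 tested members, in parentheses the number tested; red points were called higher, blue lower, grey not called, and the black bar is the median. The DLK1-DIO3 points lie mostly left of 0 with a median of -2.19, while the bar of all 317 tested miRNAs is at -0.13.

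Of the miRNAs known from gonads and follicles 8 were tested, and 2 rose and 2 fell (median 0.15), beside 23.3% and 29.3% of all 317. There were 3 rises and 2 falls (median 0.41) without month 6 replicates 2 and 4, and 5 and 2 (median 1.43) without the 3 doubted libraries. miR-202-5p, made in gonads by the supporting cells of the germ line, gave the largest fall of the comparison above a mean of 10 CPM. It was at 565, 1184, 2.61, 7818 and 2010 CPM at day 1 and at 28.3, 40.6, 102, 131 and 68.3 CPM at month 6. Day 1 replicate 3 lay below all month 6 libraries, and the other 4 lay above them. The change was -4.87 ± 1.06 (adjusted p = 0.000847), -3.56 without day 1 replicate 4 and -5.18 without day 1 replicate 3. The 3p arm had no called change in this fit. miR-202-3p was at 7.99, 9.16, 0, 38.7 and 16.9 CPM at day 1 and at 46.5, 3.96, 62.6, 10.5 and 77.1 CPM at month 6 (1.49 ± 0.83, adjusted p = 0.142), with the lowest month 6 values in replicates 2 and 4. It was called higher, with the 5p arm lower, without these 2 (2.17, adjusted p = 0.0252), without the 3 doubted libraries (1.85, adjusted p = 0.0101), without month 6 replicate 2 (1.85), without day 1 replicate 4 (2.21) and by DESeq2's Wald test (1.68).

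Others of this group went both ways. miR-320-3p, reported from granulosa cells, rose from 783, 610, 260, 727 and 793 CPM to 3657, 4012, 2753, 2668 and 4001 CPM (2.35 ± 0.37, adjusted p = 5.79e-05), with no overlap. miR-224-5p, which acts in TGF-beta signalling of granulosa cells, rose by 0.94 ± 0.35, a call lost in 9 of 19 alternative settings. miR-21-5p, which protects granulosa cells from apoptosis, was at 11894, 13003, 40535, 30136 and 20812 CPM at day 1 and at 3983, 14804, 4120, 10517 and 4835 CPM at month 6. Its change of -2.06 ± 0.66 (adjusted p = 0.0138) was -1.22 and no longer called without day 1 replicate 3, the highest library.

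The let-7 family represses growth and pluripotency genes and accumulates as tissues differentiate. Of 15 tested arms 7 rose and 2 fell, beside 23.3% and 29.3% of all 317, and the median change was 1.28. There were 8 rises and 2 falls (median 1.00) without month 6 replicates 2 and 4, and 8 and 4 (median 0.84) without the 3 doubted libraries. How reads that match several let-7 members were assigned is not given in the sources used here, so the split among them is uncertain. let-7a-5p was at 39214, 21796, 3100, 19585 and 18266 CPM at day 1. At month 6 it was at 98264.5, 15864.5, 95030.5, 15960 and 122493 CPM, so replicates 2 and 4 lay inside the day 1 range and the other 3 above it. The change was 1.79 ± 0.52 (adjusted p = 0.00722), and 2.35 without these 2. let-7b-5p was likewise low in replicates 2 and 4, with 8372 and 6577 CPM and 45528 to 66569 CPM in the others, against 8106 ± 4823 CPM at day 1 (2.24 ± 0.58). let-7d-5p rose by 1.67 ± 0.46, and let-7e-5p by 1.40 ± 0.58, a call lost in 12 of 19 alternative settings. let-7c-5p had a change of 1.28 ± 0.62 that was not called (adjusted p = 0.0936). It was called without month 6 replicates 2 and 4 (1.84, adjusted p = 0.0107), without the 3 doubted libraries (1.64, adjusted p = 0.0104), and without day 1 replicate 1 or month 6 replicate 2 or 4 alone (1.48 to 1.61).

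Abundant let-7 members also went the other way or stayed near 0. let-7i-5p fell from 44781 ± 19625 to 25400 ± 9254 CPM (-0.83 ± 0.29), a call lost in 3 alternative settings, and miR-98-5p from 726 ± 292 to 330 ± 155 CPM (-1.20 ± 0.34), lost in 2, each among them without month 6 replicates 2 and 4. let-7f-5p (-0.04 ± 0.32) and let-7g-5p (-0.13 ± 0.36) were not called, and their signs turned in other settings. Of the 6 minor arms tested, let-7b-3p, let-7d-3p and let-7e-3p rose and the other 3 were not called. let-7d-3p was at 23.2 to 82.2 CPM at day 1 and 291 to 1003 CPM at month 6 (3.46 ± 0.43, adjusted p = 9.25e-06), again highest in replicates 2 and 4. In these 2 libraries the 3p arms of let-7b and let-7d were thus high while let-7a-5p, let-7b-5p and let-7d-5p were at day 1 levels.

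The miR-99/100 and miR-125 families share transcripts with let-7 members, and miR-125 targets the let-7 antagonist LIN28. Of 9 tested members 5 rose, 0 fell, and all 5 did so with no overlap of groups (median 1.33). Over all 317 tested miRNAs 23.3% rose, 29.3% fell, and 14.2% did not overlap on the higher side. miR-125a-5p was at 15596, 9780, 537, 5133 and 5834 CPM at day 1 and at 36997, 77912, 33891, 51559 and 51515 CPM at month 6 (2.87 ± 0.54, adjusted p = 0.000239). miR-125b-5p went from 15501 ± 10583 to 68877 ± 26092 CPM (2.20 ± 0.43, adjusted p = 0.000372). Here replicates 2 and 4 were not low, unlike for let-7a-5p. miR-99b-5p rose from 4928 ± 2113 to 14368 ± 4806 CPM (1.55 ± 0.28, and 0.98 without the 3 doubted libraries), with miR-125b-3p at 1.33 ± 0.27. miR-99a-5p, among the most abundant miRNAs of both ages, was at 67294 ± 41008 and 92606 ± 25257 CPM and was not called (0.50 ± 0.34, adjusted p = 0.228).

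The miR-17-92 cluster and its paralogs promote proliferation. Of 15 tested arms 5 rose and 7 fell (median -0.34), beside 23.3% and 29.3% of all 317. The falls increased to 9 without the 2 and to 10 without the 3 doubted libraries. miR-92a-3p made up most of the list's counts at month 6. The summed level of the list went from a median of 12289 CPM (range 1408 to 20682) to 37216 CPM (33225 to 45416). miR-20a-5p was at 423, 427, 83.8, 2765 and 1252 CPM at day 1 and at 235, 328, 199, 235 and 251.5 CPM at month 6 (-1.98 ± 0.65). Without day 1 replicate 4, its highest library, the change of -1.19 was not called. The same holds for miR-17-5p, at -1.99 ± 0.64 and -1.30. miR-19b-3p fell by 2.54 ± 0.74, and by 4.32 without month 6 replicates 2 and 4, which held 27.9 and 17.6 CPM against 2.02 to 5.10 CPM. miR-363-3p fell with no overlap, from 22.7 ± 5.45 to 4.08 ± 2.10 CPM (-2.63 ± 0.38, adjusted p = 2.57e-05). In the miR-15/16 family, 1 of 7 tested arms rose, miR-195-3p (2.70 ± 0.43), and 1 fell, with 2 rises without the 2 or the 3 doubted libraries.

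Among the 10 most abundant miRNAs of either age, some calls depended on single libraries. miR-143-3p was at 88444, 156515, 733103, 146470 and 151162 CPM at day 1 and at 77633, 109358, 72922, 186562 and 74344 CPM at month 6. Its call (-1.999 ± 0.67, adjusted p = 0.0169) was lost without day 1 replicate 3, where the change was -0.28, and in 3 other settings. miR-148a-3p was at 43424 to 226620 CPM at day 1. At month 6 it was at 108252 and 128270 CPM in replicates 2 and 4 and at 17342 to 28138 CPM in the others. The change of -1.36 ± 0.50 lost its call in 8 of 19 alternative settings, and was -2.90 without these 2 libraries. miR-10b-5p (-0.05 ± 0.35), miR-26a-5p (0.40 ± 0.28) and miR-27b-3p (-0.35 ± 0.26) were not called.

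Markers of other cell types that a piece of ovary can hold were read in the same fit. Both arms of miR-126, from the EGFL7 gene of endothelium, fell: miR-126-5p from 209 to 558 CPM at day 1 to 41.2 to 99.9 CPM at month 6 (-2.50 ± 0.44), and miR-126-3p from 7841 ± 1960 to 3839 ± 1049 CPM (-1.20 ± 0.41). In 6 of 19 alternative settings the fall of miR-126-3p was not called. Of 4 red blood cell entries 1 was tested. miR-451-5p was at 232 CPM in day 1 replicate 3 and 37.4 to 87.9 CPM in the other day 1 libraries, with 12.6 to 39.3 CPM at month 6. Its fall of 2.69 on the log2 scale shrank to -1.18 without that library, and it was not called without the 3. Of 7 leukocyte miRNAs 2 rose and 2 fell (2 and 3 without the 3 doubted libraries), beside 23.3% and 29.3% of all 317. The lymphocyte miRNA miR-150 went from 67.2, 58.3, 32.1, 35.9 and 23.2 CPM to 702, 502, 249, 426 and 378 CPM (3.21 ± 0.58, adjusted p = 0.000186). miR-155-5p rose by 1.13 ± 0.46, a call lost in 11 of 19 settings, and miR-146b-5p fell by 1.78 ± 0.44. The 8 leukocyte entries summed to 183 to 1371 CPM at day 1 and 786 to 2081 CPM at month 6.

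Stromal and muscle miRNAs were mixed. The counts in this paragraph stand beside 23.3% rises and 29.3% falls among all 317 tested miRNAs. Of 5 tested arms of miR-199 and miR-214, from fibroblasts and stroma, 1 rose and 2 fell. miR-199b-5p went from 8226 ± 4220 to 1511 ± 350 CPM with no overlap (-2.48 ± 0.32, adjusted p = 9.33e-06), and miR-214-3p rose by 1.14 ± 0.31. In the smooth muscle pair miR-145-5p rose from 4681 to 6752 CPM at day 1 to 9789 to 20850 CPM at month 6 (1.14 ± 0.35), with no overlap. Its neighbour miR-143-3p did not, as given above, and the 4 arms of the pair summed to 94005 to 738573 CPM at day 1 and 83495 to 197668 CPM at month 6. Of 5 striated muscle members 2 fell and 0 rose, with 1 rise without month 6 replicates 2 and 4 and 2 without the 3 doubted libraries. miR-1 changed by -1.79 ± 0.68, a call lost in 7 settings (-1.05 without day 1 replicate 3). Of 6 neural and neuroendocrine members 2 rose and 3 fell: miR-129-3p was at 1.24 to 3.81 CPM at day 1 and 17.8 to 69.5 CPM at month 6, while miR-9-5p fell from 302 ± 64.5 to 103 ± 34.1 CPM (-1.76 ± 0.30) and miR-7-5p by 1.46 ± 0.46. No entry of the table belongs to the miR-302 or miR-371 clusters of pluripotent cells.

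Epithelial and positional miRNAs varied widely within each age, and none of their lists' members was called. miR-200b, of epithelium, was at 3125, 1129, 3151, 242 and 348 CPM at day 1 and at 30654, 48.0, 122, 3344 and 177 CPM at month 6. miR-34c-5p, of ciliated epithelium such as that of the oviduct, was at 1709, 943, 33.6, 25.2 and 22.6 CPM at day 1 and at 2525, 3.52, 0.505, 1728 and 8.03 CPM at month 6. Month 6 replicates 1 and 4 were high in both, as was day 1 replicate 1. miR-10a-5p, located in a HOX gene cluster and so tied to position along the body, was at 28115 and 21728 CPM in those month 6 replicates and at 1133 to 3300 CPM in the other 3. miR-196b, from a more posterior place in a HOX cluster, was high in month 6 replicates 3 and 5, at 1.74, 2.35, 388, 5.11 and 255 CPM at month 6 and 4.18, 385, 84.5, 327 and 537 CPM at day 1. The summed level of the 5 members of the miR-200 family ran from 485 to 4541 CPM at day 1 and from 90.5 to 36507 CPM at month 6. That of the 10 entries of the ciliated list ran from 36.4 to 2168 CPM and from 6.06 to 4874 CPM. The part of these differences between tissue pieces in the results above was not tested.

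**Figure D3:**
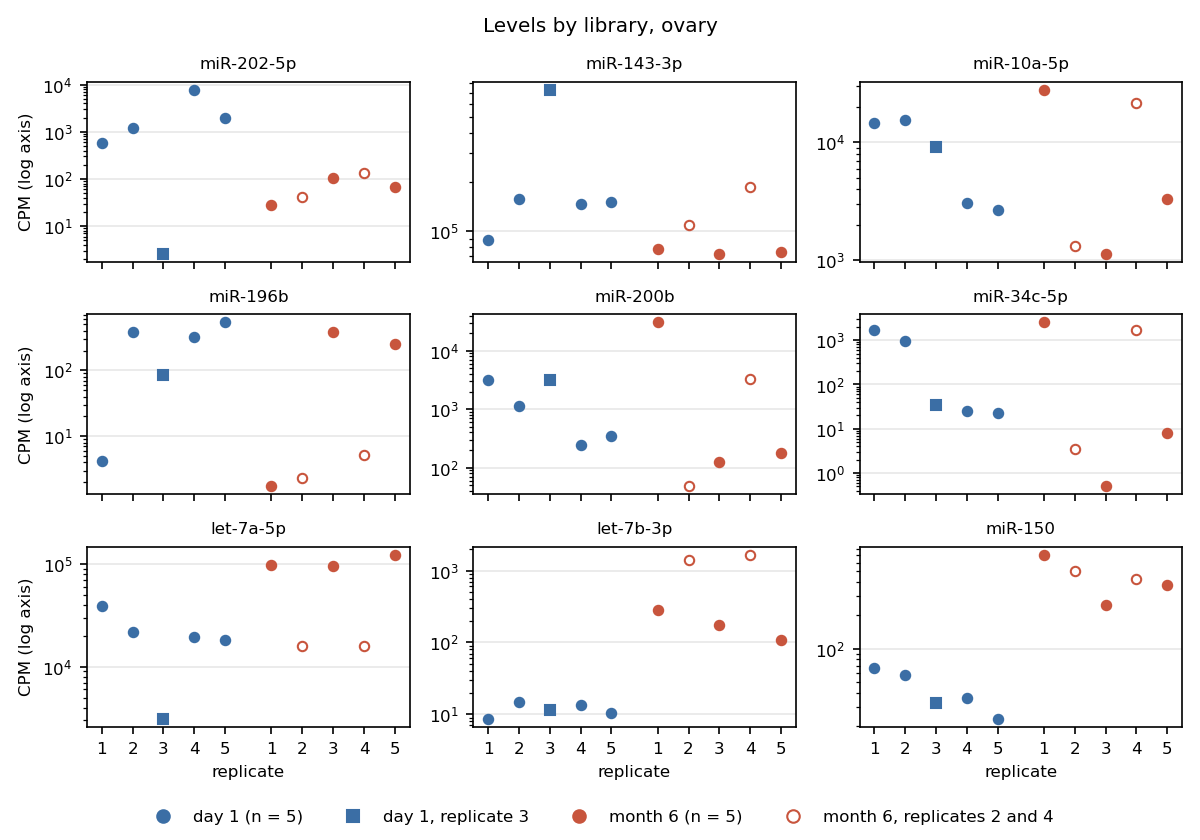
Level of 9 miRNAs in each ovary library by replicate number (CPM, log axes that differ between panels); blue is day 1, red month 6, the square day 1 replicate 3 and open circles month 6 replicates 2 and 4. The square is lowest for miR-202-5p and highest for miR-143-3p, the open circles are lowest for let-7a-5p at month 6 and highest for let-7b-3p, and miR-200b and miR-34c-5p spread widely within both ages.

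Both arms of a hairpin come from 1 precursor, and 99 hairpins had both arms tested. In 14 both arms rose, in 12 both fell, in 25 neither was called and in 45 only 1 arm was. In 3 the arms were called in opposite directions: miR-106b (5p -2.07 ± 0.55, 3p 1.45 ± 0.38), miR-30b (5p -1.19 ± 0.37, 3p 1.73 ± 0.38) and miR-455 (5p -1.17 ± 0.46, 3p 1.26 ± 0.41). Such hairpins numbered 6 without month 6 replicates 2 and 4 and 7 without the 3 doubted libraries. The call of miR-455-5p was lost in 11 of 19 settings and its change was -2.54 without the 2 libraries, and that of miR-30b-5p was -1.84. The median absolute difference between the changes of both arms was 1.01.

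The arm with more counts changed between ages in 9 hairpins, by mean CPM. In miR-424 the 5p arm held a median of 83.7% of both arms' counts at day 1 (56.0% to 87.1%) and 4.93% at month 6 (4.17% to 38.8%). In miR-455 it went from 68.0% (55.4% to 86.2%) to 12.3% (10.3% to 55.6%), with an overlap. miR-382 moved the opposite way, from 37.1% (32.0% to 56.8%) to 80.8% (53.0% to 88.2%), also with an overlap. Over all 317 tested miRNAs, 74 rose (23.3%) and 93 fell (29.3%), with a median of -0.13. Of 138 annotated 5p arms 29 rose and 49 fell (median -0.35). Of 132 annotated 3p arms 36 rose and 32 fell (median 0.06). The remaining 47 entries name no arm.

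**Figure D4:**
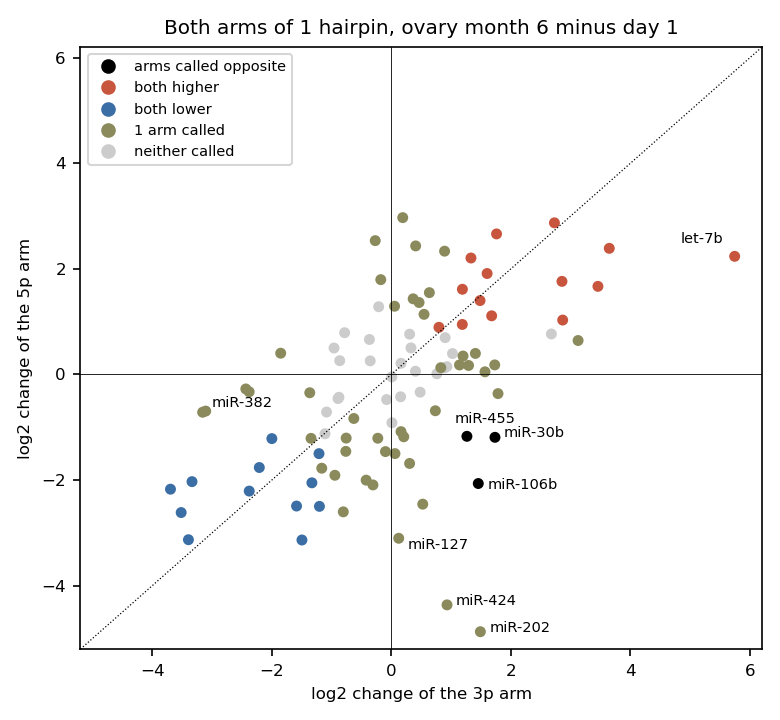
Log2 change of the 5p arm against that of the 3p arm for 99 hairpins with both arms tested, coloured by which arms were called; the dotted line marks equal change. The 3 black points, miR-106b, miR-30b and miR-455, lie right of 0 on the 3p axis and below 0 on the 5p axis, and miR-424 and miR-202 lie lowest.

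miRNA genes often lie close together and are cut from 1 transcript. Of 263 hairpins in the table, 261 matched a gene symbol of the RefSeq annotation of ARS1.2, which may differ from the assembly the counts were made on. Hairpins within 10 kb of the next formed 35 groups with at least 2 tested arms. In 9 groups there was no call and in 7 a single one. Of the 19 with at least 2 calls, 11 had all calls in the same direction and 8 had calls both ways. Over all 317 tested miRNAs 23.3% rose and 29.3% fell. Several of these groups hold only 2 or 3 tested arms, and agreement within groups was not tested against chance. The largest group, 38 hairpins from miR-379 to miR-656 in the DLK1-DIO3 region, had 26 falls and 0 rises among 38 tested arms (median -2.24). The group of miR-363, miR-20b, miR-18b and miR-106a had 3 falls in 3 tested arms. The group of miR-221 and miR-222, which target the cell cycle inhibitor CDKN1B, had 3 rises in 3, with miR-222-3p from 79.3 ± 36.8 to 530 ± 274 CPM and miR-221-3p at 1.68 ± 0.41. In the group of let-7a and let-7b 3 of 4 arms rose. The group from miR-92a to miR-17, 6 hairpins, had 3 rises and 3 falls in 6 tested arms.

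Levels at months 2 and 4 set the month 6 values in order of age. miR-202-5p was at 102 CPM at month 2, 95.3 CPM at month 4 and 74.0 CPM at month 6 after 2316 CPM at day 1 (means of 5 libraries). miR-424-5p was at 55.6, 22.6 and 33.1 CPM at these later ages, and miR-92a-3p at 29342, 24406 and 27344 CPM. In these 3 the month 6 mean lay within the range of the libraries of months 2 and 4. In the same fit of 20 ovary libraries, 2 of 317 miRNAs (0.631%) were called between month 6 and month 2, with 61 at an unadjusted p under 0.05. These were let-7b-3p (3.15 ± 0.69, adjusted p = 0.0317) and miR-29b-3p (3.21 ± 0.65, adjusted p = 0.0259), named after their values were seen. Neither was called without month 6 replicate 2 or 4, which are highest for both. The count was 0 without month 2 replicate 1, 2, 3 or 5 as well, 21, 12 and 11 without month 6 replicate 1, 3 and 5, and 25 by DESeq2's Wald test. Between month 6 and month 4, 0 of 317 (0.0%) were called, with 37 at an unadjusted p under 0.05 in edgeR.

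**Figure D5:**
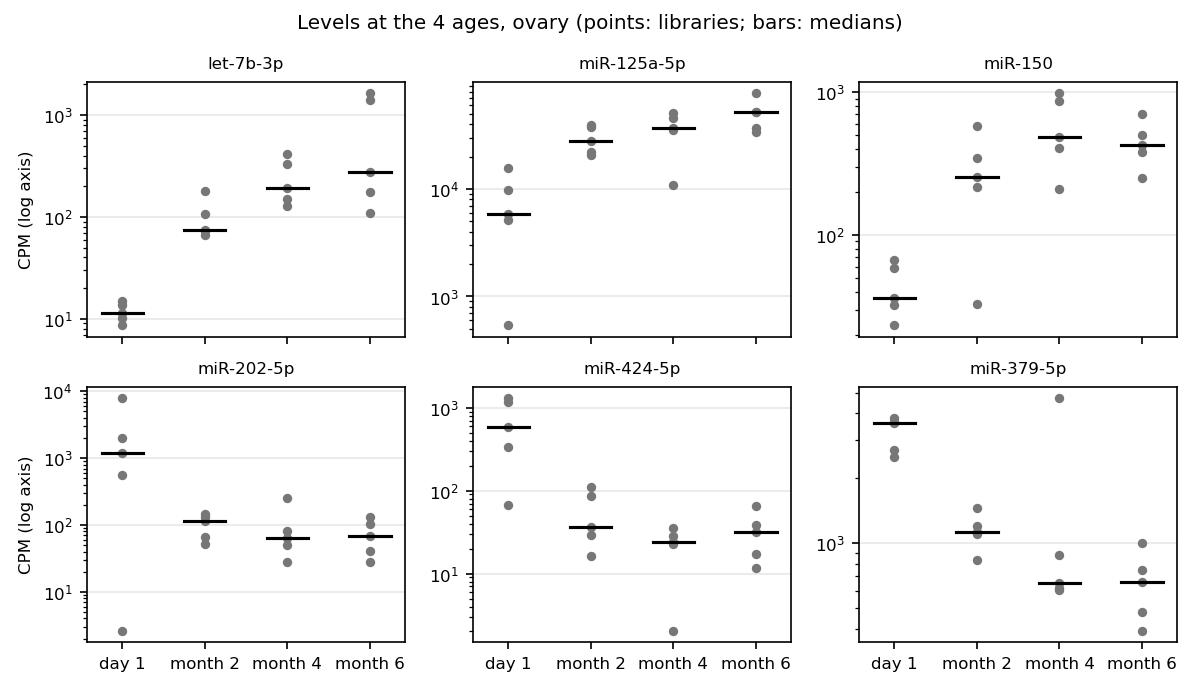
Levels of 6 miRNAs in ovary at day 1 and months 2, 4 and 6 (CPM, log axes that differ between panels); points are the 5 libraries of an age and bars their median. The medians of let-7b-3p, miR-125a-5p and miR-150 at months 2 to 6 lie above day 1, those of miR-202-5p, miR-424-5p and miR-379-5p below it.

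The change of each miRNA in ovary was tested against that in uterus over the same ages, in a fit of all 40 libraries. Of 350 miRNAs 0 (0.0%) were called for a difference between the tissues, with 35 at an unadjusted p under 0.05 in edgeR and 3 called by DESeq2's Wald test. The smallest p belonged to miR-9-5p, named after its value was seen. In uterus its level was 1005 ± 556 CPM at day 1 and 1842 ± 1336 CPM at month 6, beside 302 ± 64.5 and 103 ± 34.1 CPM in ovary. The uterus change exceeded the ovary change by 2.47 ± 0.61 (adjusted p = 0.0866), and the difference was called in 18 of 27 alternative settings. Of these, 14 left out 1 library: ovary day 1 replicate 1, 2, 4 or 5, ovary month 6 replicate 1 or 4, any of the uterus day 1 libraries, or uterus month 6 replicate 3, 4 or 5. DESeq2 also called miR-193a and miR-193b-3p, as did 5 settings that left out 1 library. These entries have nearly the same level in every library, so their reads may be shared. Their differences in edgeR were 2.50 ± 0.71 and 2.48 ± 0.71 (adjusted p = 0.116).

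In the joint fit, 53 members of DLK1-DIO3 were tested, with 0 rises and 34 falls in ovary and 6 rises and 23 falls in uterus. In that fit, 174 of 350 miRNAs were called in uterus (49.7%), 90 higher and 84 lower, and 168 in ovary (48.0%), 81 higher and 87 lower. The difference between tissues was called for 0 of the 53. let-7b-3p rose in uterus to 832 CPM from 14.2 CPM, miR-150 to 434 CPM from 41.3 CPM and miR-125a-5p to 39665 CPM from 4912 CPM. miR-202-5p averaged 0.638 CPM in uterus at day 1 and 0.107 CPM at month 6, beside 2316 and 74.0 CPM in ovary.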

How the data were processed

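Small RNA libraries of 5 ovaries at day 1 and 5 at month 6 were compared. The authors deposited whole-number read counts per mature miRNA, without normalization, and per the submitters' processing notes cutadapt 1.16, Bowtie 1.0.1 and RSEM 1.3.0 were used, with no role or order stated. The assembly, the miRNA annotation and the assignment of reads that match several miRNAs are not given in the sources used here, so the split between near-identical miRNAs is uncertain. No mature sequences, seeds or GC contents were analysed here. No library was a copy of another.

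From the counts, levels were computed as CPM of the library total, and changes with edgeR 4.0.16 in R 4.3.3: trimmed mean of M values (TMM) scaling, filterByExpr, and the quasi-likelihood test over all 20 ovary libraries (40 for the comparison with uterus). The p-values were adjusted by Benjamini-Hochberg over all miRNAs tested, and an adjusted p under 0.05 is a call. The SE is the absolute log2 change divided by the square root of F. The pipeline was also run on simulated counts, whose outcome is not given here. The simulation held no libraries like the 3 doubted ones, so it is no support for the calls. Named miRNAs are the 15 largest called changes in each direction with a mean of at least 10 CPM over the 10 libraries. Also named are the 10 most abundant of each age, members of 25 lists, and hairpins with arms called in opposite directions. Members and lists were chosen with earlier results of these data known, as were the 3 doubted libraries. Alternatives for month 6 against month 2 and for detected miRNAs were added after seeing the data. The 19 alternative settings for single changes were other filters, size factors of DESeq2 1.42.0, library totals, DESeq2's Wald test, only the compared groups, the replicate block, and libraries left out.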

Additional observations from a re-analysis of the deposited data

Results flagged for a closer look

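For each miRNA whose level or change the text gives, 178 groups of 5 libraries (89 miRNAs at 2 ages) were searched for a library whose gap to its nearest neighbour exceeded 0.71 of the group's range. For independent values from a normal distribution chance flags about 1 in 20 groups, and 17 were found. CPM values are skewed, the miRNAs were those named in the text, and the flags share libraries. That rate is therefore no test of the 17. In day 1 replicate 3 the level was highest for miR-143-3p (733103 CPM), miR-451-5p (232 CPM), miR-381 (92.6 CPM), miR-193a (43.1 CPM) and miR-193b-3p (43.8 CPM). It was lowest there for let-7i-5p (10090 CPM), let-7g-5p (4417 CPM), miR-99b-5p (1236 CPM) and let-7e-5p (431 CPM). As miR-143-3p took 73.3% of the counts of this library, the CPM of all other miRNAs in it is lowered. Day 1 replicate 4 was highest for miR-202-5p (7818 CPM), miR-7-5p (1532 CPM) and miR-19b-3p (139 CPM). At month 6, replicate 1 was highest for miR-200b (30654 CPM), replicate 2 for miR-129-3p (69.5 CPM), replicate 4 for miR-1 (1179 CPM) and miR-381 (27.3 CPM), and replicate 5 for miR-369-3p (25.5 CPM). The cause of these gaps was not tested.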

How the results depend on the processing

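The 167 calls between month 6 and day 1 became 131 to 189 in the other settings, and 154 to 183 when 1 library was left out. The replicate block gave 158, of which 156 were shared. Same-numbered deviations correlated at 0.651, -0.272, -0.249, -0.279 and 0.352, and 1 of 5 matched its own number best. They show no consistent pairing by number, but so few values cannot exclude a shared litter or day. Of 71 called miRNAs named here, 53 kept their call in every setting that gave a value, 51 of them in all 19, and none changed sign in a setting that gave a value. Signs turned only for miRNAs that were not called. let-7f-5p was at 0.0055 with the stricter filter, 0.086 with DESeq2's size factors and with its Wald test, 0.059 with only the compared groups, and 0.35 and 0.24 without the 2 and the 3 doubted libraries. let-7g-5p was at 0.30 and 0.11 in the latter 2. miR-10b-5p was at 0.022 with the stricter filter, 0.083 with DESeq2's size factors and with its Wald test, and 0.11 with only the compared groups. Leaving out 1 library gave -0.39 to 0.15 for let-7f-5p, -0.37 to 0.049 for let-7g-5p, -0.41 to 0.12 for miR-10b-5p and -0.090 to 0.32 for miR-127-3p. Between month 6 and month 2 the 2 calls became 25 by DESeq2, 1 with the replicate block, 0 without the 2 doubted libraries and 0 to 21 without 1 library. The 0 differences between the tissues became 1 with DESeq2's size factors, with no filter and without a set of 5 libraries. That set was ovary month 6 replicates 2 and 4, uterus month 6 replicates 4 and 5, and uterus month 4 replicate 4. Ovary day 1 replicate 3 was kept there. The count was 3 by DESeq2's Wald test and 0 to 3 without 1 library, where the calls were miR-9-5p, miR-193a and miR-193b-3p. The count stayed at 0 with the replicate block, library totals or only the compared groups. The difference in detected miRNAs ran from -25.6 to -16.85 without 1 library. The causes were not tested. Counting error limits the miRNAs of a few CPM, which rest on few counts a library.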
